A study of Homo sapiens with 12 samples.

Results

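The collagen genes of Hs578T breast cancer cells were taken as every gene whose symbol reads COL, a type number, A and a chain number in the deposited count tables, which list 44 of them among 55242 genes. A collagen gene was described when its mean reached at least 10 normalized counts in any of the 4 groups of libraries, and 32 of the 44 did so. These were 9 of 11 fibrillar, 4 of 6 basement membrane and 19 of 27 other collagen genes. The genes just inside the limit were COL10A1, COL9A2 and COL21A1, whose highest group means were 21.9, 26.8 and 28.1 normalized counts. Those just outside it were COL4A4, COL28A1 and COL4A3, with 5.15, 5.04 and 3.94. The other 9 genes below the limit were COL2A1, COL11A1, COL6A5, COL9A1, COL9A3, COL20A1, COL22A1, COL23A1 and COL26A1, and no library held more than 7.3 normalized counts of any of the 12.

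Hs578T is a triple-negative breast cancer line of the mesenchymal stem-like (MSL) subtype. RNA-seq was performed on cells transduced with lentivirus to express GFP or full-length NRF2 and then kept for 8 h in medium with 0.8 mM l-cystine (Cyss) or with no added Cyss, with 3 libraries in each of the groups GFP with Cyss, GFP without Cyss, NRF2 with Cyss and NRF2 without Cyss. All 4 groups had thus been transduced, moved to a base medium that lacks methionine and cystine and supplied with serum, methionine and glutamine. The promoter that drove the transgenes is not given in the sources used here, and nothing states that the 3 libraries of a group came from separate cultures, so the p-values below measure the spread between these libraries, which may be technical. Reads were counted on genes without regard to strand and numbered from 27250993 to 44596870 per library after removal of rRNA genes. Normalized counts below were scaled by edgeR's TMM method over the 12 libraries.

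NFE2L2, the gene encoding NRF2, followed the labels. It had 3662 to 3860 normalized counts in GFP cells with Cyss, 4489 to 4682 in GFP cells without Cyss, 6567 to 6924 in NRF2 cells with Cyss and 7258 to 8448 in NRF2 cells without Cyss. The labels call the line epithelial, and the 10 epithelial markers were split. KRT18 (769 to 1470 normalized counts), KRT14 (606 to 1000), KRT8 (150 to 235) and CLDN4 (7.28 to 21.9) had a mean of at least 10, while CDH1, the defining epithelial cadherin, had 3.07 to 13.8, KRT5 had 0.89 to 6.04, and EPCAM, CLDN3, CLDN7 and KRT19 were at 3.28 or less with 0 in some libraries. By sum the 10 took 1650 to 2610 per library, and all 7 mesenchymal markers were expressed, of which FN1 reached 788000 to 901000. The 6 fibroblast markers summed to 82700 to 96200 normalized counts per library, with the lowest sums in NRF2 cells without Cyss (82700 to 91300, against 94800 to 96100 in NRF2 cells with Cyss). The endothelial markers CDH5 and VWF were at 5.48 or less in every library, and of 3 leukocyte markers CD3E was at 0, PTPRC at 18.8 to 53.4 and CD14 at 18.8 to 29.7. In a principal component analysis of the more highly expressed genes, GFP without Cyss replicate 3 stood apart from its group. It lay towards the NRF2 cells without Cyss (4.82 on the first component, against -6.88 and -4.19). Results that rest on it are therefore given also without it. Among the NRF2 cells without Cyss, replicate 1 lay off the other libraries of its group on the second component (7.87, against 1.27 and -1.14).

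Collagens are extracellular proteins built of chains that wind into a triple helix. The fibrillar types (I, II, III, V, XI, XXIV and XXVII) form the tensile fibrils of connective tissue, type IV forms the sheet of basement membranes, and the remaining types decorate fibrils, form beaded filaments, anchoring fibrils or hexagonal networks, or span the plasma membrane. Their chains are hydroxylated on proline and lysine, folded and disulfide-bonded in the endoplasmic reticulum before export, and fibroblasts and other mesenchymal cells are their main producers. NRF2 is the transcription factor that drives antioxidant and detoxification genes, and Cyss, the oxidized dimer of cysteine, supplies the cell with cysteine.

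Collagen mRNA was abundant in all 4 groups. The 44 genes together took 4.15% ± 0.08 (SD, n = 3) of the reads on genes in GFP cells with Cyss, 4.19% ± 0.051 in GFP cells without Cyss, 4.37% ± 0.068 in NRF2 cells with Cyss and 4.23% ± 0.082 in NRF2 cells without Cyss. Levels of different genes were compared only per kb of mRNA, with the length of the canonical transcript. On that scale the mean over 12 libraries was highest for COL1A2 (54340 normalized counts per kb), followed by COL1A1 (40850), COL6A3 (34150), COL3A1 (30110), COL6A2 (24260) and COL6A1 (17660). The order depends on the length used: per kb of all annotated exons, COL1A1 (26820), COL1A2 (25490) and COL3A1 (24460) came before COL6A3 (16720). Below these 6 genes lay a wide gap, since the next was COL4A1 with 4739 normalized counts per kb. The cells thus held mainly the mRNAs of type I and type III, the fibrillar collagens of skin, tendon and vessel walls, and of type VI, the beaded filament collagen that surrounds cells.

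Within each class the members covered a wide range. Among the fibrillar genes the mean per kb ran from 54340 for COL1A2 to 3.135 for COL24A1, and the type V genes COL5A2 (4611), COL5A1 (4493) and COL5A3 (1832), whose chains mix into type I fibrils, stood between them. COL27A1 had 130.1 normalized counts per kb and COL11A2 had 4.274, whereas COL2A1 and COL11A1, the type II and XI chains of cartilage, were below the limit. Of the type IV genes, COL4A1 (4739) and COL4A2 (3711), which encode the chains found in nearly all basement membranes, were far above COL4A5 (42.3) and COL4A6 (6.854). Of the other types, COL8A1 (2719), COL7A1 (2608), COL12A1 (2205), COL16A1 (2161) and COL18A1 (1267) were the genes above 1000 per kb beside type VI, and COL25A1 was the lowest (3.619). By normalized counts not divided by length, 18 of the 32 genes had a mean of at least 1000 over the 12 libraries and 10 had a mean under 100, and this split set how small a difference could be seen.

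Removal of Cyss from GFP cells for 8 h moved the collagen genes little. Of 31 tested (COL10A1 was too low), 0 were called, where a call needed a Benjamini-Hochberg adjusted p under 0.1 in the quasi-likelihood test of edgeR and an absolute log2FC of more than 0.32. Of all 17452 genes tested, 2.10% were called, 1.57% higher and 0.533% lower. DESeq2 also called 0, with no adjusted p for 9 of the genes. In the edgeR test 6 of the 31 had an unadjusted p under 0.05, beside 3160 of all 17452 genes. The median log2FC was 0.01 for the collagens and 0.00 for all genes. For the 18 abundant genes the precision was high: standard errors lay between 0.0337 and 0.063, and the 95% intervals of the log2FC all fell between -0.32 (COL27A1) and 0.29 (COL13A1). For the scarce genes the intervals were wide, reaching from -1.25 to 0.01 for COL11A2.

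COL27A1, a fibrillar collagen of cartilage and other tissues, was the 1 member (3.23%, beside 5.92% of all genes) with an adjusted p under 0.1 in GFP cells. It was also the 1 member whose groups did not overlap, as those of 23.8% of all genes did not. It had 1031, 1027 and 1012 normalized counts in the libraries with Cyss and 861.4, 856.6 and 924.1 in those without. Its log2FC of -0.21 (SE 0.0514, adjusted p = 0.0425 in the edgeR test) fell short of the fold threshold, and the adjusted p rose to between 0.106 and 0.18 when replicate 3 with Cyss or replicate 1 or 2 without Cyss was left out. The fibrillar genes had a median log2FC of -0.00, the basement membrane genes 0.03 and the other types 0.05. COL11A2 had 27.61, 37.42 and 25.48 normalized counts with Cyss and 30.19, 14.99 and 13.15 without. It was called lower (log2FC -1.105, edgeR adjusted p = 0.0721) only when GFP without Cyss replicate 1, its high library, was left out. Without replicate 3, the library that stood apart, 0 collagens were called.

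In NRF2 cells the same removal of Cyss changed 5 of 32 collagen genes. COL13A1, COL17A1, COL19A1 and COL15A1 rose and COL24A1 fell, where 11.9% of 17266 genes were called, 6.81% higher and 5.14% lower. The 5 of 32 are near that background. Scaled by library size alone, the calls over all genes were 936 higher and 1397 lower, against 1176 and 887, and the collagens 3 and 1. The 4 genes that rose belong to the other types, as do 19 of the 32 tested, so their class is no result in itself. Of the 5 called genes 4 are scarce, so most of the collagen mRNA in the cells was not among them. The median log2FC was -0.01 for the collagens, -0.11 for the fibrillar, 0.04 for the basement membrane and -0.05 for the other types, beside -0.01 for all genes.

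COL13A1 encodes a transmembrane collagen of cell adhesion sites. Its normalized counts were 974, 924.8 and 1007 in NRF2 cells with Cyss and 1184, 1317 and 1364 without. The 3 libraries without Cyss lay above all others of the study, and the log2FC was 0.41 (SE 0.0601, adjusted p = 0.000153 in the edgeR test). GFP cells held 867.3, 898 and 880.3 in the presence of Cyss and 893.6, 976.5 and 1059 in its absence, which overlapped, with a log2FC of 0.15 (95% interval 0.01 to 0.29, edgeR adjusted p = 0.23). That difference shrank to 0.08 (log2FC) without GFP without Cyss replicate 3.

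COL17A1, which encodes the transmembrane collagen of hemidesmosomes, had 64.29, 55.82 and 57.97 normalized counts in NRF2 cells with Cyss and 96.99, 94.13 and 100.5 without. The groups were well apart and each was tight, with a log2FC of 0.72 (SE 0.138, edgeR adjusted p = 0.0017). Libraries of GFP cells held 79.25, 84.56 and 80.83 with Cyss and 67.42, 74.94 and 92.08 without, between the levels of the NRF2 groups.

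COL19A1 encodes a collagen associated with fibrils, of the FACIT class. It had 33.96, 43.18 and 60.16 normalized counts in NRF2 cells with Cyss and 71.96, 70.59 and 60.71 without, so that the highest library with Cyss came close to the lowest without. The log2FC was 0.56 (SE 0.196, edgeR adjusted p = 0.055), and the call was lost without NRF2 with Cyss replicate 1 or 2 or without NRF2 without Cyss replicate 2, with log2FC from 0.40 to 0.80 over the 6 fits. GFP cells had 42.74, 49.39 and 42.17 with Cyss and 33.21, 48.42 and 37.27 without.

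COL15A1, a multiplexin of basement membrane zones, had 44.88, 36.86 and 33.91 normalized counts in NRF2 cells with Cyss and 43.8, 51.16 and 64.69 without. The groups overlapped, and the log2FC of 0.48 (SE 0.196, edgeR adjusted p = 0.0991) was at the edge of the threshold. The call was lost in 4 of 6 fits that left out a library (NRF2 with Cyss replicate 2 or 3, NRF2 without Cyss replicate 2 or 3), and the log2FC over the 6 ranged from 0.32 to 0.59.

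COL24A1, a minor fibrillar collagen, moved the other way. It had 20.62, 33.7 and 32.82 normalized counts in NRF2 cells with Cyss and 9.386, 15.35 and 17.91 without, with no overlap but only 9 to 32 reads per library behind these values. The log2FC was -1.03 (SE 0.289, edgeR adjusted p = 0.0195), and DESeq2 gave the gene no adjusted p. In GFP cells the values were 23.15, 20.95 and 29.87 with Cyss and 14.09, 17.29 and 21.92 without, with a log2FC of -0.46 (95% interval -1.005 to 0.08).

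At an adjusted p under 0.1 and any size, 14 of 32 collagens (43.8%) differed in NRF2 cells without Cyss, beside 29.0% of all genes tested, and 14 had groups that did not overlap, as did 37.4% of all genes. Most of these were abundant genes with small changes. COL1A2 had 291800, 290100 and 292800 normalized counts with Cyss and 256400, 253700 and 261200 without, which did not overlap, and a log2FC of -0.18 (SE 0.0401). COL3A1 had 172500, 167300 and 169000 with Cyss and 149300, 150900 and 152600 without, with a log2FC of -0.16 (SE 0.0403), and it too showed no overlap. COL5A2 (31590, 32120 and 31630 against 28000, 29460 and 29160, log2FC -0.14) and COL16A1, a FACIT collagen (13190, 13040 and 13300 against 11000, 10970 and 11160, log2FC -0.25), were also lower in each library without Cyss. Their adjusted p-values in the edgeR test were 0.00529 (COL1A2), 0.00881 (COL3A1), 0.0278 (COL5A2) and 0.000421 (COL16A1).

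Other abundant genes were higher in NRF2 cells without Cyss. COL6A3 had 356400, 352100 and 337200 normalized counts with Cyss and 378100, 400000 and 417300 without, again without overlap, a log2FC of 0.20 (SE 0.0448, edgeR adjusted p = 0.0058). COL5A3, a minor chain of type V, had 10960, 10050 and 10330 with Cyss and 12100, 12660 and 13490 without, a log2FC of 0.29 (SE 0.0485, edgeR adjusted p = 0.000545) that lay just under the fold threshold and reached 0.33 without NRF2 with Cyss replicate 1. COL6A1 (log2FC 0.11, edgeR adjusted p = 0.0873) and COL7A1, the anchoring fibril collagen (log2FC 0.15, edgeR adjusted p = 0.0595), were past the p threshold too, and COL6A2 (log2FC 0.11) had an adjusted p of 0.106 in the edgeR test. With scaling by library size alone, COL6A1 and COL7A1 were no longer past it (log2FC 0.06 and 0.09, edgeR adjusted p = 0.389 and 0.237), while COL6A3 was (0.14, 0.0299). COL1A1, the partner chain of COL1A2, had 254300, 243600 and 250300 with Cyss and 268200, 230400 and 238600 without, with a log2FC of -0.02 (95% interval -0.14 to 0.11) that moved to -0.09 (edgeR adjusted p = 0.0808) when NRF2 without Cyss replicate 1, its highest library, was left out.

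Seen over the classes, the reads on types I and III made up 2.15% ± 0.029 (SD, n = 3) of all reads on genes in NRF2 cells with Cyss and 1.91% ± 0.081 without. The values were 2.174, 2.119 and 2.161% with Cyss and 1.998, 1.844 and 1.875% without, with no overlap. Type VI took 1.54% ± 0.036 with Cyss and 1.66% ± 0.045 without, and its libraries did not overlap either. In GFP cells the shares of types I and III were 2.05% ± 0.054 and 2.02% ± 0.091 and overlapped, while those of type VI were 1.44% ± 0.021 and 1.51% ± 0.057 and did not. The type VI values were 1.444, 1.459 and 1.417% with Cyss and 1.468, 1.488 and 1.575% without. The last is replicate 3, the library that stood apart, and without it the difference was smaller. By normalized counts the GFP groups of COL6A1, COL6A2 and COL6A3 each overlapped (edgeR adjusted p = 0.232, 0.237 and 0.364). A two-sided exact permutation test of 3 against 3 libraries cannot go below p = 0.1, the value for types I and III in NRF2 cells and for type VI in both cell populations, and over the 52 comparisons of shares and chain ratios the adjusted p was then 0.2. Since whole cultures were sequenced, a loss of cells that make a collagen and less of its mRNA per cell cannot be told apart. The summed fibroblast markers, which were lower in NRF2 cells without Cyss, are given above. The 7 mesenchymal markers summed to 1110000 to 1140000 normalized counts in NRF2 cells with Cyss and 1110000 to 1230000 without. The part of a change in the cells was not tested.

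Expression of NRF2 in the presence of Cyss left most collagens short of a call. Of 32 tested, COL10A1 was higher and COL15A1 and COL17A1 were lower, where 1.56% of 17449 genes were called, 1.36% higher and 0.201% lower. The median log2FC was 0.06 for the collagens, beside -0.00 for all genes tested. Of the 18 abundant genes 15 were above 0, beside 8506 of all 17449 genes. At an adjusted p under 0.1 and any size, 10 of 32 collagens (31.2%) differed, beside 6.43% of all genes. Of these 10, 6 are among the 18 abundant genes, of which they make up 33.3%. The part of abundance in this was not tested. The groups of 14 collagens did not overlap, beside 25.5% of all genes.

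COL10A1, the network-forming collagen that marks hypertrophic cartilage, showed the largest difference among the collagens. Its normalized counts were 5.343, 2.993 and 5.271 in GFP cells with Cyss (6, 4 and 6 reads) and 24.26, 28.44 and 13.13 in NRF2 cells with Cyss (20, 27 and 12 reads). Without Cyss it had 7.044, 6.917 and 4.385 in GFP cells (7, 6 and 4 reads) and 26.07, 16.37 and 19.9 in NRF2 cells (25, 16 and 20 reads). Each NRF2 library was above each GFP library, with a log2FC of 2.28 with Cyss (95% interval 1.47 to 3.10, edgeR adjusted p = 0.00278) and 1.74 without Cyss (95% interval 0.99 to 2.49, edgeR adjusted p = 0.00522). The gene passed the limit of 10 through the NRF2 groups alone, so that a gene kept on these terms had to differ, and DESeq2 gave it no adjusted p in either comparison (unadjusted p = 1.93e-05 and 0.00105). In the GENCODE annotation COL10A1 (chromosome 6, 116440072 to 116479910 on GRCh37, minus strand) lies within NT5DC1 on the other strand and shares no exon with it. NT5DC1 had means of 668.6 and 695.5 normalized counts in GFP and NRF2 cells with Cyss (log2FC 0.07, 95% interval -0.05 to 0.19) and 624.9 and 568.4 without.

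GFP cells with Cyss held 56.99, 65.86 and 57.98 normalized counts of COL15A1, all above the 33.91 to 44.88 of NRF2 cells, and a log2FC of -0.64 (SE 0.166, edgeR adjusted p = 0.0443). That call was lost without GFP with Cyss replicate 3 or without NRF2 with Cyss replicate 2 or 3, and the log2FC over the 6 fits ranged from -0.76 to -0.56. COL17A1, with 79.25 to 84.56 in GFP cells and 55.82 to 64.29 in NRF2 cells, had a log2FC of -0.45 (SE 0.132, edgeR adjusted p = 0.0734). It was called in 1 of 6 fits that left out a library, the one without GFP with Cyss replicate 1, with log2FC from -0.51 to -0.41, and in the fit of all 12 libraries neither of these genes was called.

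Beneath the fold threshold, several abundant collagens were slightly higher in NRF2 cells with Cyss. COL18A1, the multiplexin that holds endostatin, had 6422, 6521 and 6271 normalized counts in GFP cells and 7766, 7223 and 7652 in NRF2 cells, a log2FC of 0.25 (SE 0.0375, edgeR adjusted p = 0.000977). On the unstranded counts, 18.47% of its exon length overlaps exons of SLC19A1 on the other strand. COL16A1 had 11350, 11830 and 11130 in GFP cells and 13190, 13040 and 13300 in NRF2 cells (log2FC 0.22, SE 0.0347, edgeR adjusted p = 0.00175). COL7A1 (0.18), COL6A2 (0.17), COL6A1 (0.16) and COL27A1 (0.15) were also past the p threshold with a higher level (log2FC in brackets), and COL14A1, a FACIT collagen, was lower (log2FC -0.17).

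Expression of NRF2 in the absence of Cyss gave 3 higher collagens, COL10A1, COL19A1 and COL13A1, and 0 lower, where 10.1% of 17297 genes were called, 5.98% higher and 4.09% lower. Scaled by library size alone, the split over all genes was 876 higher and 1001 lower, against 1034 and 708, with the same counts for the collagens. DESeq2 likewise called 0 lower. In the edgeR test 14 of the 32 genes had an unadjusted p under 0.05, beside 5962 of all 17297. COL19A1 had 33.21, 48.42 and 37.27 normalized counts in GFP cells and 71.96, 70.59 and 60.71 in NRF2 cells, which did not overlap, and a log2FC of 0.78 (SE 0.178, edgeR adjusted p = 0.0104). For COL13A1 the 893.6, 976.5 and 1059 of GFP cells lay below the 1184, 1317 and 1364 of NRF2 cells, with a log2FC of 0.40 (SE 0.0717, edgeR adjusted p = 0.00297). The calls of COL19A1 and COL13A1 were kept whichever of the 6 libraries was left out. That of COL10A1 was kept too, but this gene passed the limit of 10 through the NRF2 groups alone, so its call is no support. Without GFP without Cyss replicate 3, COL17A1 was also called higher (log2FC 0.46 against 0.32 with that library).

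Of the 4 type VI genes, the abundant COL6A1, COL6A2 and COL6A3 had a log2FC of 0.17 each in this comparison, with adjusted p-values of 0.0269, 0.0302 and 0.0309 in the edgeR test. The scarcer COL6A6 had 296.9, 268.6 and 246.7 normalized counts in GFP cells and 250.3, 230.2 and 211 in NRF2 cells, which overlapped, and a log2FC of -0.23 (95% interval -0.45 to -0.01, edgeR adjusted p = 0.123). COL3A1 (log2FC -0.17, edgeR adjusted p = 0.0186) and COL5A2 (-0.19, 0.0104) were lower in NRF2 cells, and COL14A1 was lower at -0.20 (0.0428), as it was with Cyss. All of these remained below the fold threshold, and 11 of 32 collagens (34.4%) were past the p threshold at any size, beside 28.8% of all genes. The groups of 13 did not overlap, beside 37.8% of all genes. The comparisons share libraries, since each group enters 2 of the 4, so their values are not independent of each other.

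**Figure D1:**
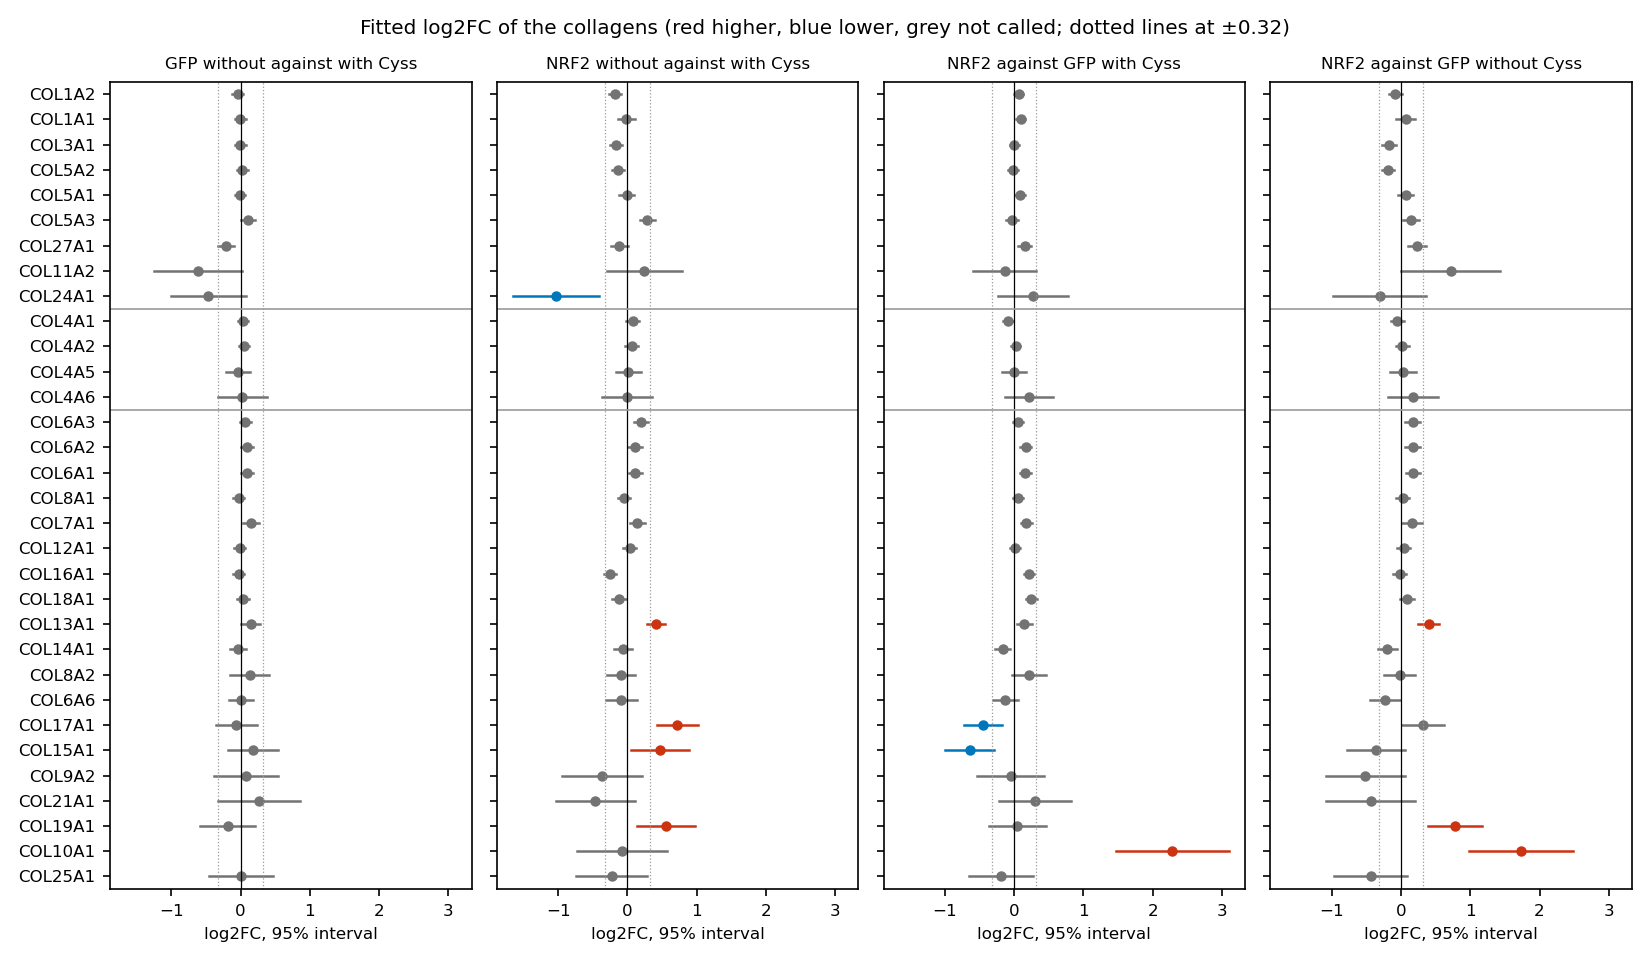
Fitted log2FC (x axis, point) with its 95% interval (line) of the collagens (y axis, by class and by level) in the 4 comparisons, in red where called higher, blue where called lower and grey where not called, with dotted lines at the fold threshold of 0.32. Intervals are narrow for the abundant genes at the top of each class and wide for the scarce ones at the bottom, and no gene is coloured for the removal of Cyss in GFP cells.

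Whether the response to Cyss removal differed between NRF2 and GFP cells was tested as an interaction on the 12 libraries, with an adjusted p under 0.1. Of 32 collagens, 3 had a response shifted upwards in NRF2 cells and 4 a response shifted downwards, where 15.1% of 17674 genes were called, 8.97% upwards and 6.13% downwards. With library size scaling these were 1124 and 1981 genes, against 1585 and 1084, and 1 and 5 collagens. Upwards were COL17A1 (difference in log2FC 0.78, SE 0.186, edgeR adjusted p = 0.0142), COL19A1 (0.75, SE 0.276, 0.0976) and COL13A1 (0.27, SE 0.0897, 0.072). Downwards were COL16A1 (-0.22, SE 0.0538, edgeR adjusted p = 0.0152), COL5A2 (-0.16, SE 0.0498, 0.0509), COL3A1 (-0.16, SE 0.0518, 0.055) and COL1A2 (-0.14, SE 0.0502, 0.0967). For COL24A1, COL15A1 and COL10A1, called in other comparisons, the interaction was not past the threshold, with 95% intervals of -1.40 to 0.26, -0.26 to 0.85 and -1.74 to 0.67.

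The 4 genes whose response was shifted downwards are abundant. In GFP cells COL1A2 had 279700, 288200 and 276000 normalized counts with Cyss and 280100, 278400 and 258700 without, COL3A1 had 169000, 174600 and 168300 against 173600, 175900 and 160700, and COL5A2 had 32930, 32710 and 31580 against 33340, 33610 and 31720. These GFP groups overlapped for all 3 genes, in contrast to the NRF2 groups given above. COL16A1 had 11040, 11660 and 10840 in GFP cells without Cyss, which overlapped the values with Cyss, and its log2FC between NRF2 and GFP cells without Cyss was -0.02 (95% interval -0.12 to 0.08). The calls of COL16A1 and COL17A1 were kept whichever of the 12 libraries was left out, whereas those of COL5A2, COL3A1, COL13A1, COL1A2 and COL19A1 were kept in 8, 7, 4, 4 and 3 of the 12 fits. Their values over these fits ranged from -0.18 to -0.14 (COL5A2), -0.20 to -0.14 (COL3A1), 0.20 to 0.33 (COL13A1), -0.17 to -0.12 (COL1A2) and 0.58 to 0.98 (COL19A1). Without GFP without Cyss replicate 3, 4 collagens were called upwards and 5 downwards.

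Several collagens lie next to each other in the genome. COL3A1 and COL5A2, both shifted downwards, are 19152 bases apart on chromosome 2 and on opposite strands (COL3A1 at 189839099 to 189877472, COL5A2 at 189896624 to 190090038, GRCh37). COL1A1 and COL1A2, whose products assemble in a fixed proportion, are on chromosomes 17 and 7. The amount of COL1A2 per COL1A1, each per kb, was 1.36 ± 0.025 (SD, n = 3) in NRF2 cells with Cyss and 1.23 ± 0.096 without. In GFP cells it was 1.39 ± 0.02 and 1.35 ± 0.029. The ratio in NRF2 cells without Cyss ranged from 1.11 to 1.28 and did not overlap that with Cyss. Its lowest value was in replicate 1, and replicates 2 and 3 were both at 1.28. Replicate 1 also had the largest share of reads assigned to no gene (17.073%, against 15.889 and 16.063% in replicates 2 and 3). The smallest p an exact permutation test allows here is again 0.1. COL6A1 and COL6A2, 93062 bases apart on chromosome 21, kept a ratio between 1.37 ± 0.045 and 1.38 ± 0.021 in all 4 groups. COL4A1 and COL4A2, which overlap at their starts on chromosome 13 and share no exon bases, had a ratio (COL4A2 per COL4A1) of 0.752 ± 0.0031 in GFP cells and 0.815 ± 0.014 in NRF2 cells with Cyss, without overlap (exact permutation p = 0.1, adjusted p = 0.2).

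The 4 basement membrane genes were called in 0 of the 4 comparisons and 0 times in the interaction. Here too DESeq2 called 0, with no adjusted p for COL4A6 in 3 of them, and the unadjusted p was under 0.05 in 1 case, COL4A1 in NRF2 against GFP cells with Cyss (log2FC -0.09, 95% interval -0.17 to -0.02, edgeR adjusted p = 0.146). COL4A1 had means of 31580, 32140, 29320 and 30930 normalized counts in GFP with, GFP without, NRF2 with and NRF2 without Cyss, and COL4A2 had 23420, 24180, 23540 and 24550. COL4A5 stayed between 253.4 and 308.1 and COL4A6 between 39.18 and 53.19 in the 12 libraries. The remaining collagens outside the 10 named as called had 95% intervals that are shown in the plot of log2FC by comparison. Of those, COL12A1, a FACIT collagen of tendon and stroma, had log2FC between -0.01 and 0.04 in the 4 comparisons and 24650 to 26850 normalized counts in 12 libraries.

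Genes that act on collagens were counted from a list of 43 present in the tables, of which 41 were tested. They cover hydroxylation of proline and lysine, glycosylation, folding, export, cleavage of propeptides, cross-linking and collagen receptors. In GFP cells without Cyss, 1 was higher (DDR2) and 0 were lower, and DESeq2 called 0 lower as well. An unadjusted p under 0.05 in the edgeR test was reached by 10 of 41, beside 3160 of all 17452 genes. In NRF2 cells without Cyss, 4 were higher (ITGA2, DDR2, COLGALT2 and LOXL4) and 1 was lower (TLL1). NRF2 cells with Cyss had 1 higher (ADAMTS14) and 0 lower against GFP cells, again with 0 lower by DESeq2. Here 18 of 41 had an unadjusted p under 0.05 in the edgeR test, beside 3321 of all 17449 genes. NRF2 cells without Cyss had 5 higher (ITGA2, LOXL4, ADAMTS14, LOXL1 and ADAMTS3) and 1 lower (TLL1). Without single libraries, the TLL1 call between NRF2 and GFP cells (log2FC -0.48) was kept in 2 of 6 fits (-0.58 to -0.36, lost without GFP without Cyss replicate 1 or 2 or NRF2 without Cyss replicate 1 or 3), that of ADAMTS3 in 4 of 6 (0.30 to 0.36, lost without GFP without Cyss replicate 2 or NRF2 without Cyss replicate 3), and that of LOXL4 in NRF2 cells (log2FC 0.41) was lost without NRF2 with Cyss replicate 2. The shares of all genes called in these comparisons are those given above for the collagens. The median log2FC of the list was 0.01, -0.01, 0.09 and 0.07 in these 4 comparisons, beside 0.00, -0.01, -0.00 and -0.02 for all genes.

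Of 7 collagen receptors, DDR2 and ITGA2 were called in at least 1 of the 4 comparisons, and DDR1, ITGA1, ITGA10, ITGA11 and MRC2 were not. DDR2, the receptor tyrosine kinase that binds fibrillar collagen, had 11900, 11620 and 11850 normalized counts in control GFP cells and 16340, 15810 and 16510 without, a log2FC of 0.46 (SE 0.034, edgeR adjusted p = 1.86e-06). In NRF2 cells it had 11500, 11910 and 11190 with Cyss and 16740, 16220 and 16410 without, a log2FC of 0.52 (SE 0.0444, edgeR adjusted p = 8.56e-07). DDR2 thus rose in both cell populations, and its interaction was 0.05 (95% interval -0.06 to 0.16). ITGA2, the alpha subunit of a collagen-binding integrin, rose in NRF2 cells from 7525, 7370 and 7138 to 14590, 16540 and 18390, a log2FC of 1.17 (SE 0.0622, edgeR adjusted p = 6.86e-09). In GFP cells it had 7441, 6865 and 7347 with Cyss and 6657, 6841 and 10330 without, where the high value is that of replicate 3, the library that stood apart. Its log2FC there was 0.14 (95% interval -0.13 to 0.41), or -0.09 without that library.

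Among the enzymes and chaperones, ADAMTS14, a protease that removes the amino-terminal propeptide of fibrillar procollagen, had 2484, 2546 and 2510 normalized counts in GFP cells and 3610, 3284 and 3441 in NRF2 cells with Cyss. Without Cyss it had 2634, 2481 and 2812 in GFP cells and 3697, 3568 and 3882 in NRF2 cells. It was higher in each NRF2 library, with a log2FC of 0.47 (SE 0.0416, edgeR adjusted p = 3.39e-06) with Cyss and 0.49 (SE 0.0558, edgeR adjusted p = 0.000309) without. LOXL4, a cross-linking enzyme, had 62.39, 85.31 and 77.83 in GFP cells and 111.6, 109.5 and 119.4 in NRF2 cells without Cyss (log2FC 0.60, edgeR adjusted p = 0.0106). TLL1, a tolloid protease of the carboxy-terminal propeptide, had 58.22, 58.98 and 66.72 in NRF2 cells with Cyss and 35.46, 48.09 and 42.79 without (log2FC -0.54, edgeR adjusted p = 0.0366), a call lost without NRF2 with Cyss replicate 3 or NRF2 without Cyss replicate 1 (log2FC over the 6 fits -0.64 to -0.44). COLGALT2, which adds galactose to hydroxylysine, had 86.12, 68.46 and 80.94 against 95.95, 118.7 and 97.53 in the same comparison (log2FC 0.41, edgeR adjusted p = 0.0532), and that call was lost in 3 of 6 fits without a library (NRF2 with Cyss replicate 2 or 3, NRF2 without Cyss replicate 2). LOXL1, another cross-linking enzyme, had 3173, 3293 and 3175 in GFP cells and 4094, 4026 and 4184 in NRF2 cells without Cyss (log2FC 0.35, edgeR adjusted p = 0.000476).

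SERPINH1, the collagen chaperone HSP47, had 44610, 43450 and 43500 normalized counts in NRF2 cells with Cyss and 38680, 38930 and 40270 without. GFP cells held 41670, 44980 and 42000 against 43920, 46510 and 43360. The groups were apart in NRF2 cells and overlapped in GFP cells, and the interaction was -0.22 (SE 0.0553, edgeR adjusted p = 0.0211). Of the 41 genes tested, 4 had a response shifted upwards in NRF2 cells, of which ITGA2 (1.03, SE 0.162, edgeR adjusted p = 0.00103), LEPREL1, a prolyl 3-hydroxylase (0.23, SE 0.0561, 0.0145), and ITGA1, another integrin subunit (0.19, SE 0.0638, 0.0657), were the largest. The 4 shifted downwards included TLL1 (-0.68, SE 0.227, edgeR adjusted p = 0.067), KLHL12, an adaptor for collagen export (-0.24, SE 0.0833, 0.0839), and SERPINH1. The prolyl 4-hydroxylase genes P4HA1, P4HA2, P4HA3 and P4HB and the lysyl hydroxylase genes PLOD1, PLOD2 and PLOD3 had log2FC from -0.12 (P4HA3, NRF2 cells without against with Cyss) to 0.23 (PLOD2, NRF2 against GFP cells without Cyss) in the 4 comparisons, all under the fold threshold.

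Promoter sequences of RefSeq (GRCh38.p14) were read for 25 of the 32 genes, which have 36 annotated starts among them. COL1A1, COL1A2, COL3A1 and COL5A2 were not among the 25. The 250 bases before each start were searched, on both strands, for the core of the antioxidant response element that NRF2 binds (TGACNNNGC), a composite site of ATF4 (TGATGNAA), the AP-1 site (TGANTCA) and the CCAAT box (CCAAT), and on the strand of the gene for the TATA box (TATAAA). The antioxidant response core was found in 3 of the 36 promoters (8.33%; COL21A1, COL4A5 and COL4A6) and in 10.9% of all 35116 promoters. The ATF4 composite letters were in 1 promoter (2.78%, COL21A1, against 3.14% of all), the AP-1 letters in 1 (2.78%, COL10A1, against 6.57%), CCAAT in 9 (25.0%, and in 11240 of all promoters) and TATAAA in 6 (16.7% against 6.8%). Bases are shown for the gene with the largest difference between NRF2 and GFP cells and for the 3 genes that rose in NRF2 cells without Cyss and passed the interaction test, with matches to these letters in capitals.
COL10A1, start of the canonical transcript, chr6:116126133-116126382, minus strand: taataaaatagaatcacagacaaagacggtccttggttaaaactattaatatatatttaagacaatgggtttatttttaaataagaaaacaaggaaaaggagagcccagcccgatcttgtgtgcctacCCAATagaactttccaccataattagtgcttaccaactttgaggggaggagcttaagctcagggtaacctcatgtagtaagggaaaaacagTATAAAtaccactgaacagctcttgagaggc
COL10A1, another start, chr6:116158773-116159022, minus strand: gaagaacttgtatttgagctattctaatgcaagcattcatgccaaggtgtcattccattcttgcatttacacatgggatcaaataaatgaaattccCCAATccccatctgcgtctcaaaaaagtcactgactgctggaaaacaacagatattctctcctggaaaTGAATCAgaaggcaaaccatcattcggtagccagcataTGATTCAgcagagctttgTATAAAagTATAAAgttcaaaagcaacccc
COL13A1, chr10:69801656-69801905, plus strand: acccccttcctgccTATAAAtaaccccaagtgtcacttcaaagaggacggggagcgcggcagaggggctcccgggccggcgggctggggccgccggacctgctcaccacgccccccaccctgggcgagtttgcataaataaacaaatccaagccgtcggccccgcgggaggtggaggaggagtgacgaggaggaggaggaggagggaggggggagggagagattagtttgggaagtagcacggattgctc
COL17A1, chr10:104085881-104086130, minus strand: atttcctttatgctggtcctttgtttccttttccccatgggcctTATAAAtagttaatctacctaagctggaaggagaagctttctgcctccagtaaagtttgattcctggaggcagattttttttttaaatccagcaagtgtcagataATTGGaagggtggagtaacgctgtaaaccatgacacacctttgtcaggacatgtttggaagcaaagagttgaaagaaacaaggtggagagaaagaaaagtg
COL19A1, chr6:69866306-69866555, plus strand: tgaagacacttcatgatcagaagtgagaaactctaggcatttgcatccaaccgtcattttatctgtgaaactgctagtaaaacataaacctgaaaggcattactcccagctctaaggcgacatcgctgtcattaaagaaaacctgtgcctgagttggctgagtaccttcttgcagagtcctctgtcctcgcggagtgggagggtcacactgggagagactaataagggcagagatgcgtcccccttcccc
The capitals are CCAAT at -122 to -118 and TATAAA at -31 to -26 before the canonical start of COL10A1, and CCAAT at -154 to -150, the AP-1 letters at -86 to -80 and -48 to -42, and TATAAA at -30 to -25 and -22 to -17 before the second start shown. The window of the remaining start of COL10A1 (chr6:116217145-116217394, minus strand, not shown) held none of these letters. TATAAA was at -236 to -231 for COL13A1 and at -206 to -201 for COL17A1, whose window also held CCAAT on the other strand at -101 to -97, and the window of COL19A1 held none of these letters. The windows shown differ in base composition, with 64.0% G and C in COL13A1, 48.4% in COL19A1, 40.4% in COL17A1 and 37.6% at the canonical start of COL10A1. A match of letters is a description of the sequence, and the RNA counts do not tell which start was used.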

How the data were processed

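RNA-seq counts were analysed for 12 libraries of Hs578T cells, 3 in each of 4 groups taken from the samples' labels. The deposited values are raw counts per gene symbol, made by the authors from single-end reads that were mapped to hg19 with TopHat 2.1.0 and counted on exons with HTSeq 0.11.2 in its intersection-nonempty mode without strand. The annotation behind the symbols is not given in the sources used here. The tables hold 55765 symbols, from which 523 rRNA genes were removed, and 15.889 to 17.073% of the reads in a table were assigned to no gene and were left out of library sizes.

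For each comparison the 6 libraries concerned were scaled by TMM, genes averaging 10 normalized counts or more in either group were kept, and edgeR 4.0.16 (R 4.3.3) was applied as a quasi-likelihood test with Benjamini-Hochberg adjustment over all genes kept. A call needed an adjusted p under 0.1 with an absolute log2FC of more than 0.32, and for the interaction, fitted on 12 libraries, at an adjusted p under 0.1. Intervals are 95% intervals of the fitted log2FC. Replicates differed by more than sampling noise in each pair. Positions and lengths come from GENCODE 44 on GRCh37. The procedure was tested on simulated data.

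The members, gene lists, tests and alternatives were chosen with earlier results of these data known. Values are given for each collagen called in any comparison or the interaction and for those highest per kb, for other collagens as ranges and counts, and for the collagen-acting genes that were called, at most 3 per direction and comparison. COL27A1, COL11A2, COL18A1, COL5A3 and other collagens below the fold threshold, and SERPINH1, were named after their values were seen. Alternatives were DESeq2 1.42.0 (Wald test) and its size factors, scaling by library size, filterByExpr, no filter, a joint fit of 12 libraries, a block for the replicate number, an adjusted p under 0.05 and leaving out each library. A setting with rRNA genes kept was added after the data were seen. Python 3.11.15 and matplotlib 3.10.9 made the tables and plots.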

Additional observations from a re-analysis of the deposited data

Results flagged for a closer look

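The response to Cyss removal differed between NRF2 and GFP cells for 7 collagens and 8 collagen-acting genes, by the interaction test on 12 libraries (edgeR quasi-likelihood test, Benjamini-Hochberg adjusted p under 0.1). These were 21.9% of the collagens and 19.5% of the collagen-acting genes tested, beside 15.1% of all genes. Among the collagens the difference in log2FC was 0.78 for COL17A1, 0.75 for COL19A1 and 0.27 for COL13A1, and it was -0.22 for COL16A1, -0.16 for COL3A1, -0.16 for COL5A2 and -0.14 for COL1A2. Among the collagen-acting genes it was 1.03 for ITGA2, 0.23 for LEPREL1, 0.19 for ITGA1 and 0.14 for SEC24D, a component of the coat that exports procollagen. It was -0.68 for TLL1, -0.24 for KLHL12, -0.22 for SERPINH1 and -0.20 for LOXL3, which shares 20.71% of its exon length with HTRA2. Of the 12 fits that left 1 library out, the calls were kept in 12 for COL16A1, COL17A1, ITGA2, LEPREL1 and SERPINH1, in 7 for LOXL3, in 6 for ITGA1 and TLL1, in 5 for KLHL12 and in 3 for SEC24D.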

How the results depend on the processing

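No called gene changed direction under any setting, but some uncalled values near 0 changed sign, such as ITGA2 in GFP cells (log2FC 0.14, or -0.09 without GFP without Cyss replicate 3). Of the recomputed counts of calls and of expressed collagens, 263 stayed within 1.5 times the reported value and 59 did not. Of the recomputed log2FC and medians, 3423 kept their side of the threshold or moved within the spread, 111 lost it, 31 gained it and 50 moved. With an adjusted p under 0.05, the collagens had 2 higher in NRF2 cells without Cyss, 1 lower in NRF2 against GFP cells with Cyss, and 1 upwards and 1 downwards in the interaction, and the collagen-acting genes 0 lower in NRF2 against GFP cells without Cyss and 2 upwards and 2 downwards in the interaction. With DESeq2, the collagens had 0 lower in NRF2 cells without Cyss and 0 higher and 0 lower in NRF2 against GFP cells with Cyss, where all 3 genes called by edgeR had no adjusted p, and the collagen-acting genes had 0 lower in NRF2 cells without Cyss and 0 lower in NRF2 against GFP cells without Cyss. With all 12 libraries, 5 collagens were higher in NRF2 against GFP cells without Cyss and 0 lower in NRF2 against GFP cells with Cyss. With library size only, the interaction had 1 collagen and 2 collagen-acting genes upwards, and 2 collagen-acting genes were lower in NRF2 cells without Cyss. The cause of these shifts was not tested.

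Leaving out each library in turn, the collagens ranged from 0 to 1 lower in GFP cells without Cyss, 2 to 5 higher in NRF2 cells without Cyss, 0 to 2 lower in NRF2 against GFP cells with Cyss, 0 to 2 lower in NRF2 against GFP cells without Cyss, and 1 to 4 upwards and 1 to 5 downwards in the interaction. The collagen-acting genes ranged from 2 to 4 higher and 0 to 2 lower in NRF2 cells without Cyss, 1 to 3 higher in NRF2 against GFP cells with Cyss, 0 to 1 lower in NRF2 against GFP cells without Cyss, and 2 to 7 upwards and 1 to 5 downwards in the interaction. Deviations from the group means correlated at -0.16 to 0.248 between libraries with the same replicate number and at -0.28 to 0.197 between those with different numbers. These ranges overlap, so they cannot decide whether the numbers pair the samples, and the main tests treated the libraries as unpaired. With a replicate block, 1 collagen (COL15A1) was lower in NRF2 against GFP cells without Cyss, where 0 were without it. Few reads limit what can be seen for the scarce collagens, whose intervals are wide.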
